A study of Mus musculus with 21 samples.

Results

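Genes of the major histocompatibility complex (MHC) and of antigen presentation were examined in RNA sequencing of sorted retinal cells. Members were all rows of the count table whose symbol begins with H2-, apart from H2-Ke2 and H2-Ke6, together with B2m, Tap1, Tap2, Tapbp, Psmb8, Psmb9, Psmb10, Nlrc5, Ciita, Cd74 and Erap1. These were 40 of 17164 counted genes, of which 29 belong to class I (20 H2- symbols and 9 partner, processing and regulatory genes) and 11 to class II. Of the 38 with a GENCODE entry, 32 lie on chromosome 17, which holds the mouse MHC. The cells were sorted as retinal ganglion cells, which send their axons through the optic nerve, from C57BL/6 mice 6 to 7 weeks old in the sample sheet, 3 days after the nerve was crushed. The groups held 4 CEBPG, 5 ATF3, 5 CHOP and 2 ATF4 knockout libraries, each made with guide RNAs against that stress-response transcription factor (CHOP is encoded by Ddit3), and 4 control libraries with a non-targeting guide. All 5 groups share the crush and the sort. A further library with contradictory labels was left out.

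MHC class I molecules display peptides from inside the cell to CD8 T cells on a heavy chain paired with B2m (beta-2 microglobulin), and nearly every nucleated cell can make them, neurons usually at low levels. Peptides are cut by the proteasome, whose interferon-induced catalytic subunits are Psmb8, Psmb9 and Psmb10, pumped into the endoplasmic reticulum by Tap1 and Tap2, trimmed by Erap1 and loaded with the help of Tapbp. MHC class II molecules display peptides from endosomes to CD4 T cells and are made mainly by professional antigen-presenting cells, which in the retina include activated microglia and incoming myeloid cells. Cd74, the invariant chain, holds the class II groove until it is cut and H2-DM exchanges its last fragment for a peptide. Nlrc5 is the coactivator of class I genes and Ciita that of class II genes, and both act through a shared promoter module, the SXY module, bound by RFX, CREB/ATF-type and NF-Y factors.

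Promoter sequences from RefSeq (GRCm38.p6, 250 bases before to 50 bases after the annotated start) were matched by symbol to 27 of the 40 members, with 29 windows because H2-K1 and H2-DMa have 2 each. Those shown are of a class I heavy chain, the light chain, a peptide pump subunit and 2 class II chains that the results turn on: H2-K1 (chr17:34000298-34000597, minus strand), B2m (chr2:122147437-122147736, plus strand), Tap1 (chr17:34187306-34187605, plus strand), H2-Aa (chr17:34287774-34288073, minus strand) and H2-Eb1 (chr17:34305617-34305916, plus strand). Each is written 5′ to 3′ on the gene's own strand, and capitals mark every match, on either strand, to ATTGG (the NF-Y core of the Y box), TGACG (the CREB/ATF core of the X2 box), GAAANNGAA (an interferon regulatory factor pair), GGGANTNCC (NF-kB type), TGATGNAAT (the composite element of ATF4 with a C/EBP factor) and TGANTCA (AP-1). Neighbouring matches can overlap, as 2 TGACG matches on opposite strands do in H2-Aa.
H2-K1: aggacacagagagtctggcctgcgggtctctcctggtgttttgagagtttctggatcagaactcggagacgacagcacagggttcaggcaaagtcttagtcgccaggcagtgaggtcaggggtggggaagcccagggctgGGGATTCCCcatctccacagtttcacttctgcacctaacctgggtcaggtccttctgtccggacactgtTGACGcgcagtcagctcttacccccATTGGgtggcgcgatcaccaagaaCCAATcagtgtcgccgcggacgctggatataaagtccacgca
B2m: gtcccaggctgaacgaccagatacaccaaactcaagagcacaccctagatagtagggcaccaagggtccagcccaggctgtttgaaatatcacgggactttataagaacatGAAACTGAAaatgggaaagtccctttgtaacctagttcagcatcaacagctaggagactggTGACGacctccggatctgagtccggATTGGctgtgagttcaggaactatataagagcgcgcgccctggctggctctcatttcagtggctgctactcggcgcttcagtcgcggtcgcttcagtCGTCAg
Tap1: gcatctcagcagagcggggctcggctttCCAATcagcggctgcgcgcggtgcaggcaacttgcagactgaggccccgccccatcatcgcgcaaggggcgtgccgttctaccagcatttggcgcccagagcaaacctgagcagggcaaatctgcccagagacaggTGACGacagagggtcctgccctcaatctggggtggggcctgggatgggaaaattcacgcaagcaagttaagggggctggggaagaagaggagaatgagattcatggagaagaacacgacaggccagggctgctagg
H2-Aa: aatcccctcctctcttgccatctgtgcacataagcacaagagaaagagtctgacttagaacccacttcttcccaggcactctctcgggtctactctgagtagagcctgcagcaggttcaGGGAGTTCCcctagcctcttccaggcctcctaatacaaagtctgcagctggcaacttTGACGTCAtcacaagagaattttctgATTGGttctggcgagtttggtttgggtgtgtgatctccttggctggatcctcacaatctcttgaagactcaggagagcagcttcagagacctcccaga
H2-Eb1: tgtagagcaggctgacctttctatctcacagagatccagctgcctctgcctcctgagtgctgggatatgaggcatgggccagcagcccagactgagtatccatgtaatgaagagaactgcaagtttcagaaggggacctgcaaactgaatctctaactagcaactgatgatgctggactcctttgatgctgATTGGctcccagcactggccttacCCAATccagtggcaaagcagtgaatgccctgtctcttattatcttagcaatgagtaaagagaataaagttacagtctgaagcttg
H2-K1, B2m and H2-Aa hold a TGACG shortly before an ATTGG, whereas in Tap1 the matches to these motifs lie far apart and H2-Eb1 holds matches to ATTGG alone. ATTGG was found in 22 of the 27 members, in 79.3% of their 29 windows and in 37.4% of all 32851 windows of that table. TGACG was found in 11 members, in 41.4% of their windows and in 20.8% of all. A TGACG followed on the same strand by an ATTGG that begins 20 to 30 bases later was found in 6 of the 27 members, namely H2-K1, H2-D1, H2-Q7, H2-M3, B2m and H2-Aa, in 7 of the 29 member windows and in 0.25% of all windows. That spacing was chosen after the sequences had been seen, and it was 24 to 26 bases in the 6 genes. GAAANNGAA was found in 4 members (13.8% of their windows and 8.56% of all) and GGGANTNCC in 6 (24.1% and 3.95%). TGANTCA was found in 2 members, H2-DMa and H2-DMb1 (6.9% and 7.81%), and TGATGNAAT in 0 members and in 0.965% of all windows. A match is a description of letters, and its absence says only that these letters are not in the window.

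Libraries held 9000250 to 29810987 counted reads in the CEBPG, 25267560 to 32776378 in the ATF3, 14272784 to 31543917 in the CHOP and 11929692 to 12404601 in the ATF4 knockouts, against 6401446 to 11752828 in the controls. Levels are CPM, reads scaled to a common library size by TMM, and a gene was called changed at an edgeR quasi-likelihood adjusted p below 0.05. Values in parentheses are log2 fold changes, the group named first over the other, with their standard errors (SE). In the sample sheet the CEBPG, ATF3 and CHOP libraries are all female and of batch 3, the controls all male and of batch 2 and the ATF4 libraries of batch 1, so the knockout cannot be told apart from the batch, nor (ATF4 excepted) from sex, in a comparison with control, and within-batch values exist only among CEBPG, ATF3 and CHOP. ATF4 replicate 1 is entered as female although it held 61.5 CPM of the Y-linked gene Ddx3y. The label of the sort was set against markers: the 10 ganglion cell markers summed to 417 to 544 CPM in the CEBPG, 663 to 689 CPM in the ATF3, 495 to 616 CPM in the CHOP and 619 to 672 CPM in the ATF4 knockouts, against 500.2 to 666 CPM in the controls. The 12 microglia markers summed to 4758 to 5949, 4307 to 4738, 3042 to 4201 and 4512 to 5755 CPM in the CEBPG, ATF3, CHOP and ATF4 knockouts, against 3481 to 5201 CPM in the controls. The microglia sum stood above the ganglion cell sum in every group, in reads not corrected for gene length. The 8 Müller glia and astrocyte markers summed to 7644 to 9310 CPM in the CEBPG and 10434 to 12122 CPM in the ATF3 knockouts. In CHOP and ATF4 they summed to 5683 to 6840 and 9767 to 12573 CPM, against 5197 to 8085 CPM in the controls. That sum was above the microglia sum in every library. The 6 amacrine markers summed to 1987 to 5166 CPM in the knockouts, against 1022 to 1546 CPM in the controls. Rod sums reached 48998 CPM in the controls. Which cells the MHC transcripts came from was not measured, and in such bulk samples fewer cells of a type and less RNA per cell cannot be told apart.

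Most class I genes were higher in the CEBPG knockouts than in the ATF3 and CHOP knockouts and the controls. Against the ATF3 knockouts of the same batch, 22 of 28 class I members tested were higher and 0 lower, beside 10.2% of all genes called higher and 10.1% called lower. Against the CHOP knockouts of the same batch, 22 of 28 were also higher and 0 lower, beside 13.5% and 13.2% of all genes. Against control 17 of 28 were higher and 0 lower, beside 18.3% and 15.0% of all genes. The median log2 fold change of the class I members tested was 1.30, 1.23 and 0.99 in these comparisons, and that of all genes 0.00, -0.03 and 0.06. The ATF3, CHOP and ATF4 knockouts had no class I gene called higher than in the controls.

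The classical heavy chains H2-D1 and H2-K1 and the light chain B2m had the most class I reads in every group. H2-K1 was at 1332, 1403, 1524 and 1586 CPM in the CEBPG and 511, 515, 507, 478 and 497 CPM in the ATF3 knockouts. It was at 494, 507, 540.0, 437 and 432 CPM in the CHOP and 730.2 and 618 CPM in the ATF4 knockouts, against 547, 482, 729.8 and 529 CPM in the controls. Every CEBPG library stood above every other library, by a log2 fold change of 1.54, SE 0.11, adjusted p = 2.07e-09 against ATF3, 1.60, SE 0.11, adjusted p = 1.63e-09 against CHOP and 1.35, SE 0.12, adjusted p = 2.19e-09 against control. H2-D1 was at 1473, 1573, 1746 and 2015 CPM in the CEBPG and 774, 698, 692, 688 and 698 CPM in the ATF3 knockouts. It was at 674, 717, 759, 572 and 582 CPM in the CHOP and 1027 and 820.5 CPM in the ATF4 knockouts, against 788, 637, 943 and 668 CPM in the controls. The 4 CEBPG libraries again lay above all others (1.26, SE 0.12, adjusted p = 1.37e-07 against ATF3, 1.36 against CHOP, and 1.16, SE 0.13, adjusted p = 1.64e-07 against control). B2m was at 1010, 1462, 1702 and 1842 CPM in the CEBPG and 971, 858, 842, 828 and 837 CPM in the ATF3 knockouts. Its transcript was at 742, 798, 795, 682 and 591 CPM in the CHOP and 1029 and 898 CPM in the ATF4 knockouts, against 997, 693, 1162 and 789 CPM in the controls. The common light chain was also higher (0.79, SE 0.15, adjusted p = 0.000474 against ATF3, and 0.72, SE 0.16, adjusted p = 0.000993 against control), and CEBPG replicate 6 lay inside the range of the controls. Reads of B2m per read of H2-K1 were 0.758 to 1.16 in the CEBPG knockouts, 1.66 to 1.90 in the ATF3, 1.37 to 1.57 in the CHOP and 1.41 and 1.45 in the ATF4 knockouts, against 1.44 to 1.82 in the controls. Neither H2-K1, H2-D1 nor B2m passed the test in the ATF3, CHOP or ATF4 knockouts against control.

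**Figure D1:**
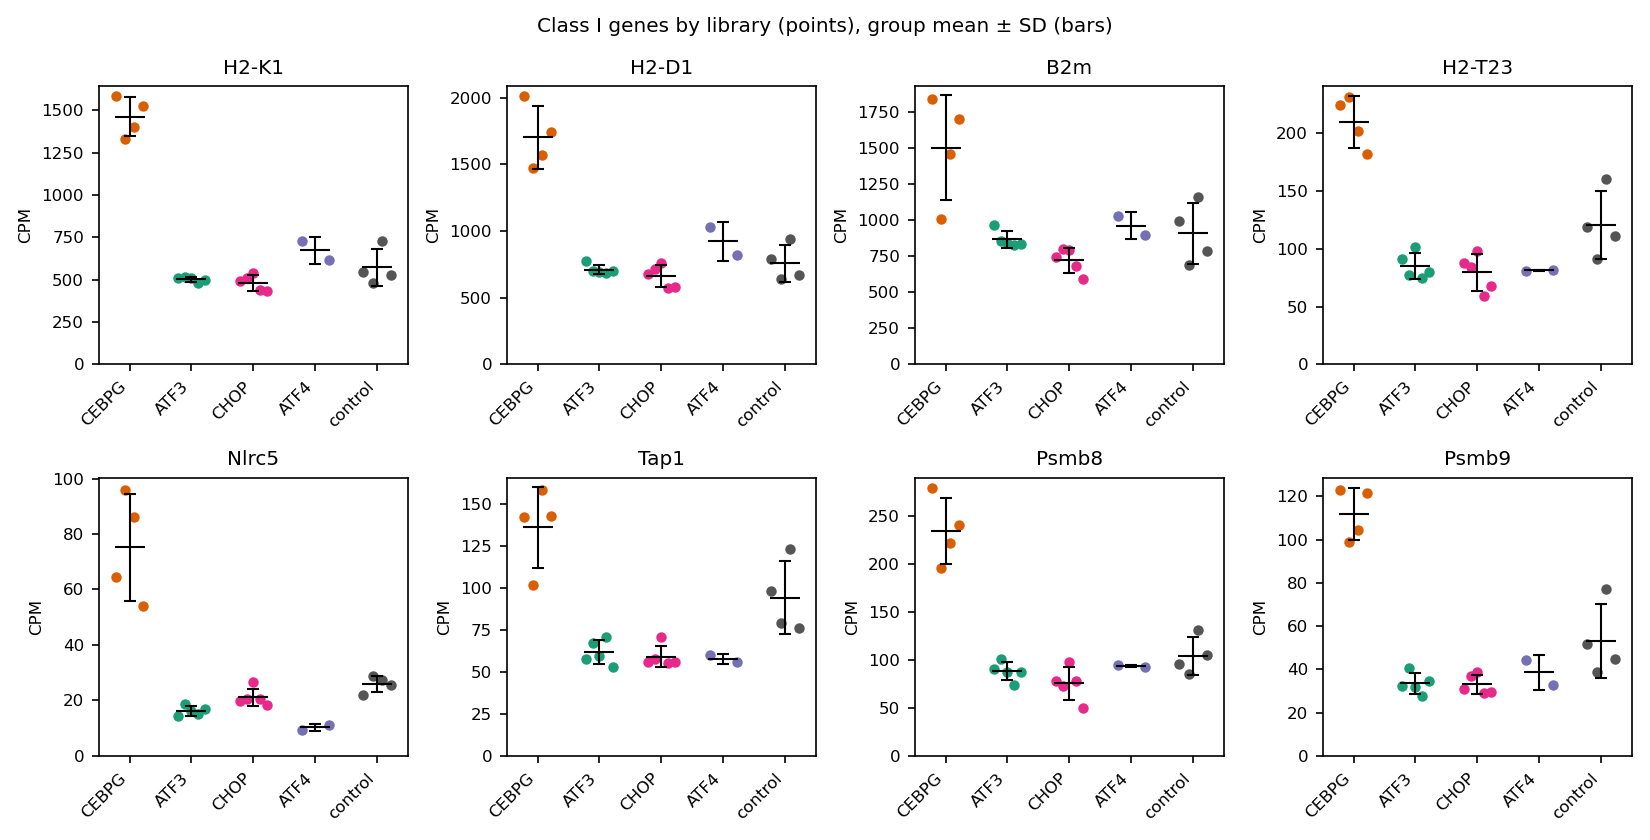
CPM (vertical axes, from 0) of 8 class I genes in each of the 20 libraries (points), grouped as CEBPG, ATF3, CHOP and ATF4 knockouts and control, with the group mean and SD as bars. For H2-K1, H2-D1, H2-T23, Nlrc5, Psmb8 and Psmb9 the 4 CEBPG points lie above every other point, while for B2m and Tap1 the CEBPG and control points overlap.

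Among the other class I chains, H2-T23 encodes Qa-1, the ligand of the CD94/NKG2A receptor of natural killer cells. H2-T23 was at 231, 201, 182 and 224 CPM in the CEBPG and 91.3, 77.7, 102, 74.7 and 80.2 CPM in the ATF3 knockouts. It was at 88.0, 84.4, 98.4, 58.8 and 67.5 CPM in the CHOP and 80.9 and 81.4 CPM in the ATF4 knockouts, against 119, 90.9, 161 and 111 CPM in the controls. Values were highest in the CEBPG libraries without overlap (1.30, SE 0.16, adjusted p = 2.22e-06 against ATF3, 0.80, SE 0.17, adjusted p = 0.000535 against control). H2-M3 presents formylated peptides of bacterial or mitochondrial origin. H2-M3 was at 51.3, 47.0, 51.6 and 81.5 CPM in the CEBPG and 27.1, 24.0, 28.3, 22.4 and 23.7 CPM in the ATF3 knockouts. It was at 28.0, 15.7, 24.4, 17.4 and 15.2 CPM in the CHOP and 27.2 and 26.4 CPM in the ATF4 knockouts, against 31.2, 24.6, 31.3 and 33.1 CPM in the controls. All CEBPG values were above all others (1.21, SE 0.20, adjusted p = 0.000103 against ATF3, 0.94, SE 0.21, adjusted p = 0.00115 against control). The remaining chains are described with a limit that holds for all of them: class I genes share long stretches of near-identical sequence, and no source used here says how reads matching several were counted.

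H2-Q5 is annotated as a polymorphic pseudogene. H2-Q5 was at 51.5, 27.4, 36.7 and 44.2 CPM in the CEBPG and 7.71, 11.3, 9.62, 6.26 and 6.57 CPM in the ATF3 knockouts. It was at 11.1, 11.4, 10.5, 6.34 and 11.5 CPM in the CHOP and 16.5 and 12.5 CPM in the ATF4 knockouts, against 8.73, 6.48, 12.5 and 5.98 CPM in the controls. The CEBPG libraries were above all others (2.27, SE 0.27, adjusted p = 2.11e-06 against ATF3, 2.24, SE 0.29, adjusted p = 2.12e-06 against control). H2-L has no gene in the haplotype of C57BL/6 mice and no entry in the GENCODE annotation used for places, so its row is of uncertain origin. H2-L was at 22.5, 23.6, 21.97 and 25.4 CPM in the CEBPG and 8.04, 11.1, 7.69, 8.26 and 7.35 CPM in the ATF3 knockouts. It was at 12.7, 7.72, 11.1, 9.63 and 8.03 CPM in the CHOP and 11.4 and 7.95 CPM in the ATF4 knockouts, against 6.03, 9.56, 7.40 and 9.91 CPM in the controls. Its CEBPG values lay above all others (1.46, SE 0.24, adjusted p = 0.000103 against ATF3, 1.51, SE 0.26, adjusted p = 6.72e-05 against control). H2-T10 and H2-T22 are known for encoding ligands of gamma-delta T cell receptors. In the annotation used for places, H2-T10 is a polymorphic pseudogene and overlaps Gm7030 on the same strand. H2-T10 was at 25.6, 11.9, 13.1 and 23.1 CPM in the CEBPG and 1.07, 6.54, 1.70, 0.218 and 3.95 CPM in the ATF3 knockouts. It was at 4.20, 2.76, 8.05, 2.10 and 3.08 CPM in the CHOP and 0.520 and 0 CPM in the ATF4 knockouts, against 2.25, 4.05, 6.72 and 1.61 CPM in the controls. The CEBPG values were above the other groups (2.77, SE 0.69, adjusted p = 0.00583 against ATF3, 2.33, SE 0.75, adjusted p = 0.0188 against control), and the second call was lost without control replicate 4 or 8 (adjusted p = 0.0532 and 0.0645). Against CHOP it was 2.19, SE 0.68, adjusted p = 0.0199, lost without CEBPG replicate 6 (adjusted p = 0.0527). H2-T22 was at 4.76, 5.002, 5.29 and 4.68 CPM in the CEBPG and 2.42, 1.20, 1.89, 3.13 and 1.37 CPM in the ATF3 knockouts. It was at 1.40, 0.753, 1.10, 1.60 and 1.46 CPM in the CHOP and 2.34 and 1.38 CPM in the ATF4 knockouts, against 1.62, 1.46, 0.850 and 2.41 CPM in the controls. The values were again highest in the CEBPG group, at 1.97, SE 0.55, adjusted p = 0.0101 against CHOP. The H2-T22 call against control (1.63, SE 0.60, adjusted p = 0.0374) was lost without any 1 of CEBPG replicates 8, 9 and 10 or control replicates 4, 5 and 7 (adjusted p = 0.0529 to 0.096), and the difference from ATF3 did not pass (1.30, adjusted p = 0.0955).

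H2-Q10 encodes a soluble class I chain known from liver and had the largest fold change of the members called against control. H2-Q10 was at 12.97, 28.6, 15.1 and 13.8 CPM in the CEBPG and 0.0918, 0.647, 1.74, 0.509 and 1.72 CPM in the ATF3 knockouts. It was at 0.560, 0.282, 0, 0.399 and 0.166 CPM in the CHOP and 0.0867 and 0 CPM in the ATF4 knockouts, against 0.180, 0, 0.510 and 0.536 CPM in the controls. All CEBPG values exceeded all others, by 4.22, SE 0.80, adjusted p = 0.000478 against ATF3, 5.98 against CHOP and 5.72, SE 0.98, adjusted p = 6.38e-05 against control, where the 4 controls together held 14 reads. H2-M2 showed a like pattern at low counts. H2-M2 was at 6.89, 14.3, 4.73 and 5.40 CPM in the CEBPG and 0.306, 0, 0, 0 and 0 CPM in the ATF3 knockouts. It was at 0.700, 1.19, 2.32, 0 and 0 CPM in the CHOP and 0.607 and 2.27 CPM in the ATF4 knockouts, against 0.540, 0.648, 2.89 and 1.70 CPM in the controls. The CEBPG values were above all others, while 4 of the 5 ATF3 libraries were at 0 and ATF3 replicate 5 held 10 reads, so that the fitted fold change against ATF3 (6.79, SE 1.42, adjusted p = 0.00126) rests on those 10 reads. Its call against CHOP (3.201, SE 1.19, adjusted p = 0.0496) was lost without any 1 of 16 single libraries (adjusted p = 0.0508 to 0.131), 4 of them CEBPG, 4 CHOP, 2 ATF3, 2 ATF4 and 4 control libraries.

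H2-Q4 and H2-Q8 are further Qa-region chains, and H2-Q8 has no GENCODE entry. H2-Q4 was at 5.57, 5.79, 5.13 and 6.50 CPM in the CEBPG and 2.36, 2.30, 1.10, 2.07 and 2.23 CPM in the ATF3 knockouts. It was at 2.03, 2.79, 5.14, 1.95 and 1.75 CPM in the CHOP and 4.34 and 4.95 CPM in the ATF4 knockouts, against 1.89, 3.40, 4.51 and 1.96 CPM in the controls. The CEBPG values were above those of ATF3, ATF4 and control, overlapped CHOP and passed against ATF3 (1.51, SE 0.47, adjusted p = 0.0257). H2-Q8 was at 3.14, 2.25, 2.33 and 2.01 CPM in the CEBPG and 0.581, 0.583, 0.513, 0.364 and 0.313 CPM in the ATF3 knockouts. It was at 0.280, 0.847, 0.337, 0.349 and 0.666 CPM in the CHOP and 0.434 and 0.811 CPM in the ATF4 knockouts, against 1.35, 1.30, 1.28 and 0.268 CPM in the controls. All CEBPG values were above all others, and the gene passed against ATF3 (2.35, SE 0.81, adjusted p = 0.0433) and CHOP (2.27). Leaving out ATF3 replicate 7, ATF3 replicate 8 or CEBPG replicate 10 ended the H2-Q4 call (adjusted p = 0.0513 to 0.0695). The H2-Q8 call against ATF3 was lost without any 1 ATF3 or CEBPG library or control replicate 4 (adjusted p = 0.0511 to 0.0957), and that against CHOP without ATF3 replicate 6 or 7, any 1 CEBPG library or CHOP replicate 1, 3, 4 or 5 (adjusted p = 0.0504 to 0.0866).

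H2-K2 and H2-T24 differed from this order, as their CEBPG and control values overlapped. H2-K2 was at 91.1, 84.0, 52.7 and 77.1 CPM in the CEBPG and 46.4, 41.0, 41.9, 33.7 and 51.8 CPM in the ATF3 knockouts. It was at 48.3, 66.7, 50.3, 47.1 and 43.7 CPM in the CHOP and 55.8 and 41.9 CPM in the ATF4 knockouts, against 63.4, 96.2, 80.1 and 104 CPM in the controls. H2-K2, annotated as a transcribed pseudogene, was higher in CEBPG than in ATF3 (0.83, SE 0.18, adjusted p = 0.00163) and than in CHOP (0.57, SE 0.18, adjusted p = 0.0196, lost without CEBPG replicate 6 or 8 at adjusted p = 0.0685 and 0.0517), whereas the difference from control was -0.17, SE 0.19, adjusted p = 0.521. H2-T24 was at 22.1, 22.9, 19.7 and 9.46 CPM in the CEBPG and 10.9, 7.41, 8.05, 9.24 and 9.85 CPM in the ATF3 knockouts. It was at 11.5, 10.6, 7.54, 5.29 and 8.74 CPM in the CHOP and 9.54 and 12.2 CPM in the ATF4 knockouts, against 11.8, 15.2, 13.8 and 12.9 CPM in the controls. CEBPG replicate 10 was the lowest CEBPG value of H2-T24 and lay inside the ATF3 range and below every control. The other CEBPG values of H2-T24 lay above every control. The gene passed against ATF3 (1.02, SE 0.27, adjusted p = 0.00893) and CHOP (1.08) but not control (0.47, adjusted p = 0.231). Of the other class I symbols, H2-Q2, H2-Q7, H2-Bl, H2-M5 and H2-M10.2 had no call in any comparison and no library above 1.74 CPM, reached by H2-Q2 in a CEBPG library. H2-Q1 did not pass the filter on low counts and reached 0.990 CPM in a control library.

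The 9 class I partner and processing genes, B2m among them, moved together in the CEBPG knockouts: all 9 were higher than in ATF3 and than in CHOP knockouts, and 8 of 9 higher than in controls. Nlrc5, the class I coactivator, is described first. Nlrc5 was at 96.0, 86.1, 54.1 and 64.5 CPM in the CEBPG and 14.3, 18.9, 16.0, 14.9 and 16.8 CPM in the ATF3 knockouts. It was at 19.96, 20.5, 26.5, 20.5 and 18.3 CPM in the CHOP and 9.37 and 11.2 CPM in the ATF4 knockouts, against 21.97, 28.8, 27.2 and 25.5 CPM in the controls. All CEBPG values lay above all others (2.21, SE 0.18, adjusted p = 1.49e-08 against ATF3, 1.83, SE 0.18, adjusted p = 9.47e-08 against CHOP, 1.54, SE 0.19, adjusted p = 8.4e-07 against control). Tap1 was at 102, 158, 143 and 142 CPM in the CEBPG and 57.8, 67.3, 59.6, 70.7 and 53.1 CPM in the ATF3 knockouts. It was at 56.1, 57.9, 70.6, 55.5 and 55.6 CPM in the CHOP and 59.9 and 55.6 CPM in the ATF4 knockouts, against 98.2, 79.0, 123 and 76.4 CPM in the controls. Tap1, a subunit of the peptide pump, was higher in CEBPG than in ATF3 (1.14, SE 0.15, adjusted p = 6.42e-06) and CHOP (1.21) without overlap. CEBPG and control libraries overlapped for Tap1 (0.53, SE 0.16, adjusted p = 0.011), and that call was lost without CEBPG replicate 8 or control replicate 5 or 8 (adjusted p = 0.056, 0.0612 and 0.066). Tap2 was at 153, 144, 165 and 191 CPM in the CEBPG and 86.8, 91.0, 72.5, 79.7 and 88.2 CPM in the ATF3 knockouts. It was at 78.4, 84.0, 91.9, 69.996 and 58.0 CPM in the CHOP and 81.1 and 62.6 CPM in the ATF4 knockouts, against 128, 93.3, 132 and 89.4 CPM in the controls. Tap2, the other subunit, followed (0.96, SE 0.15, adjusted p = 4.03e-05 against ATF3, 0.56, SE 0.15, adjusted p = 0.00688 against control), with every CEBPG library above the rest. Tap1 and Psmb9 lie head to head on opposite strands of chromosome 17 with overlapping annotated ends, and no source used here gives the strand setting of the counting.

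Tapbp (tapasin) links the pump to the empty class I molecule. Tapbp was at 226, 223, 324 and 325 CPM in the CEBPG and 204, 192, 165, 185 and 214 CPM in the ATF3 knockouts. It was at 173, 170.3, 179, 152 and 170.0 CPM in the CHOP and 177 and 178 CPM in the ATF4 knockouts, against 268, 209, 248 and 181 CPM in the controls. It was higher in CEBPG than in ATF3 (0.52, SE 0.13, adjusted p = 0.00535) and CHOP (0.70), but CEBPG and control overlapped and did not pass (0.28, SE 0.14, adjusted p = 0.121). Erap1 trims peptides in the endoplasmic reticulum. Erap1 was at 42.0, 37.0, 41.8 and 48.1 CPM in the CEBPG and 25.8, 15.5, 17.8, 23.6 and 19.4 CPM in the ATF3 knockouts. It was at 19.0, 16.6, 19.6, 22.7 and 22.6 CPM in the CHOP and 5.47 and 15.0 CPM in the ATF4 knockouts, against 25.5, 14.1, 23.5 and 19.7 CPM in the controls. The CEBPG values were above all others (1.05, SE 0.23, adjusted p = 0.00232 against ATF3, 1.02, SE 0.25, adjusted p = 0.00282 against control).

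The inducible proteasome subunits are the remaining processing genes. Psmb8 was at 196, 221, 241 and 278 CPM in the CEBPG and 90.8, 101, 87.6, 74.2 and 87.7 CPM in the ATF3 knockouts. It was at 77.9, 73.2, 97.8, 77.6 and 50.003 CPM in the CHOP and 94.1 and 92.4 CPM in the ATF4 knockouts, against 95.3, 85.2, 131 and 105 CPM in the controls. Psmb8 was highest in every CEBPG library (1.41, SE 0.15, adjusted p = 7.64e-07 against ATF3, 1.17, SE 0.17, adjusted p = 5.78e-06 against control). Psmb9 was at 99.0, 105, 121 and 123 CPM in the CEBPG and 32.1, 40.8, 31.8, 27.9 and 34.7 CPM in the ATF3 knockouts. It was at 30.7, 37.0, 38.9, 28.9 and 29.6 CPM in the CHOP and 44.4 and 32.7 CPM in the ATF4 knockouts, against 51.5, 38.7, 77.4 and 44.7 CPM in the controls. Psmb9 showed the same order without overlap (1.74, SE 0.18, adjusted p = 2.97e-07 against ATF3, 1.07, SE 0.19, adjusted p = 8.04e-05 against control). Psmb10 was at 66.3, 90.4, 82.9 and 96.3 CPM in the CEBPG and 42.0, 46.6, 45.2, 47.6 and 40.2 CPM in the ATF3 knockouts. It was at 32.8, 43.7, 38.2, 27.0 and 39.8 CPM in the CHOP and 57.1 and 50.8 CPM in the ATF4 knockouts, against 45.6, 37.1, 60.9 and 34.8 CPM in the controls. Psmb10 had all CEBPG values above the rest (0.92, SE 0.17, adjusted p = 0.000291 against ATF3, 0.91, SE 0.18, adjusted p = 0.000295 against control).

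Each inducible subunit replaces a constitutive partner in the proteasome, so reads of each pair were also set as a ratio within each library. Reads of Psmb8 per read of Psmb5 averaged 1.63 ± 0.197 in the CEBPG knockouts (SD, n = 4), 0.584 ± 0.0665 in the ATF3 (n = 5), 0.570 ± 0.161 in the CHOP (n = 5) and 0.377 ± 0.0562 in the ATF4 knockouts (n = 2), against 0.920 ± 0.120 in the controls (n = 4). The CEBPG ratio was above those of ATF3 and CHOP in every library for all 3 pairs, and each of these 6 differences had a two-sided exact permutation p = 0.0159, the smallest these sizes allow, and an adjusted p = 0.0417 over 21 tests. Psmb9 per Psmb6 averaged 0.530 ± 0.0596 in the CEBPG and 0.166 ± 0.0261 in the ATF3 knockouts, and Psmb10 per Psmb7 averaged 0.897 ± 0.152 in the CEBPG and 0.502 ± 0.0343 in the ATF3 knockouts. Against control the CEBPG ratios were 1.78 and 2.06 times as high for Psmb8 and Psmb9 without overlap, where the smallest exact permutation p for 4 against 4 is 0.0286 (adjusted p = 0.0556 for both). ATF3 ratios were lower than in the controls for Psmb8 and Psmb9 (0.635 and 0.643 times, adjusted p = 0.0417 for both by the same exact permutation test). A ratio also moves with its constitutive subunit. In ATF4, Psmb5 averaged 250 CPM against 113 CPM in the controls (1.15, edgeR adjusted p = 1.02e-06), while Psmb8 averaged 93.3 against 104 CPM. In ATF3, Psmb8 itself was not called lower than in the controls (mean 88.2 against 104 CPM).

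**Figure D2:**
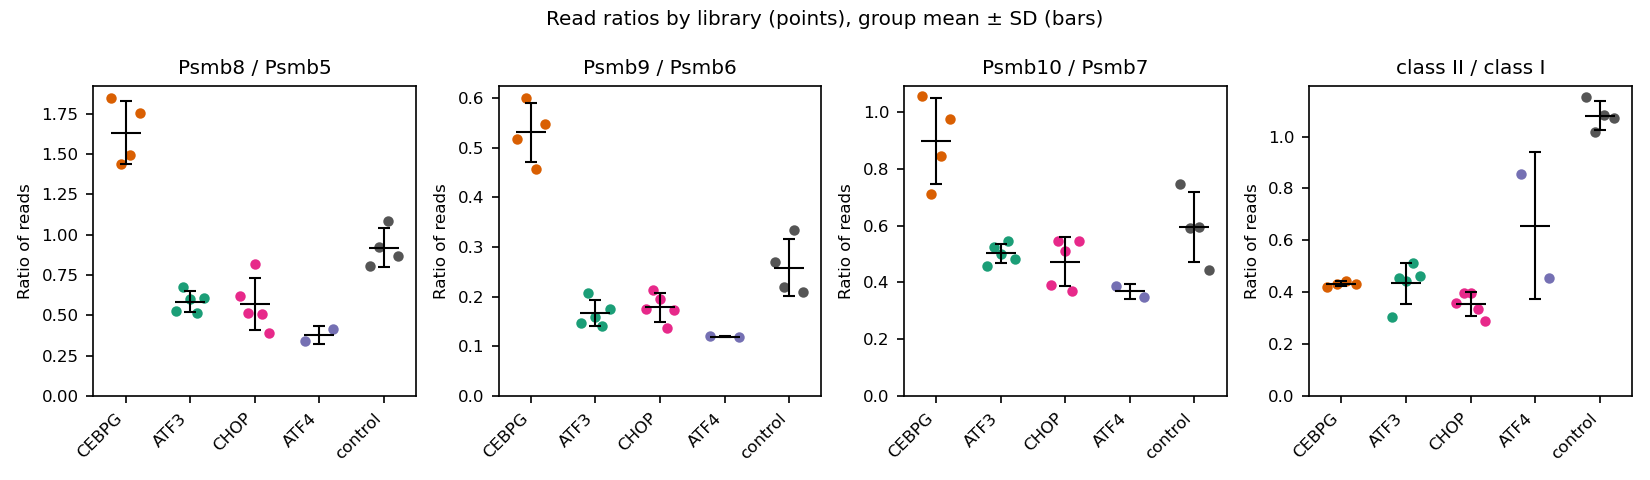
Ratio of reads (vertical axes, from 0) in each library (points) with group mean and SD (bars): inducible over constitutive proteasome subunit in the first 3 panels, and summed class II over summed class I reads in the last. CEBPG points are the highest in the Psmb8 and Psmb9 panels, with means of 1.63 and 0.530, while in the last panel the 4 controls, at 1.02 to 1.15, lie above all knockout points.

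Summed markers of T and natural killer lymphocytes, of monocytes and macrophages and of dendritic cells were highest in the CEBPG libraries. The 4 measured B cell markers summed to 13.45 to 40.9 CPM in CEBPG, overlapping CHOP (11.2 to 16.6 CPM) and ATF4 (10.1 to 21.1 CPM). Their sums were 4.99 to 10.3 CPM in ATF3 and 2.98 to 9.45 CPM in the controls. The CEBPG microglia sums overlapped those of ATF4 and control. The 12 measured T and natural killer lymphocyte markers summed to 1368 to 2299 CPM in the CEBPG, 254 to 314 CPM in the ATF3, 281 to 424 CPM in the CHOP and 63.2 and 16.5 CPM in the ATF4 knockouts, against 7.56 to 19.1 CPM in the controls. All 12 were higher than control in CEBPG, ATF3 and CHOP alike. Cd3e, of the T cell receptor complex, was at 83.3 to 194 CPM in the CEBPG, 25.8 to 37.3 CPM in the ATF3 and 23.2 to 39.7 CPM in the CHOP knockouts, against 0 to 2.68 CPM in the controls. The 9 measured monocyte and macrophage markers summed to 2041 to 2586 CPM in the CEBPG, 796 to 964 CPM in the ATF3, 286 to 494 CPM in the CHOP and 834 and 414 CPM in the ATF4 knockouts, against 598 to 1018 CPM in the controls, with 6 of 9 called higher in CEBPG than in control or ATF3. The 10 dendritic cell markers summed to 171 to 254 CPM in the CEBPG, 104 to 119 CPM in the ATF3, 69.2 to 134 CPM in the CHOP and 107 to 134 CPM in the ATF4 knockouts, against 90.4 to 146 CPM in the controls, with 6 of 10 called higher in CEBPG than in control, 4 higher than in ATF3, 6 higher than in CHOP and 0 lower in any of them. Clec9a, a marker of cross-presenting dendritic cells, was at 0 in every CEBPG library but was not called lower there in any of these comparisons. The dendritic cell and microglia lists share the marker Siglech. Of the 12 microglia markers, 7 were higher in CEBPG than in control, 4 higher than in ATF3 and 9 higher than in CHOP, with 0 lower. Beside these marker counts, 18.3% of all genes were called higher in CEBPG than in control, 10.2% than in ATF3 and 13.5% than in CHOP. Against control, 18.6% of all genes were called higher in ATF3 and 18.1% in CHOP. The part of these cells in the class I difference was not tested. In the ATF3 and CHOP knockouts the T and natural killer lymphocyte sum was above that of every control and below that of every CEBPG library.

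**Figure D3:**
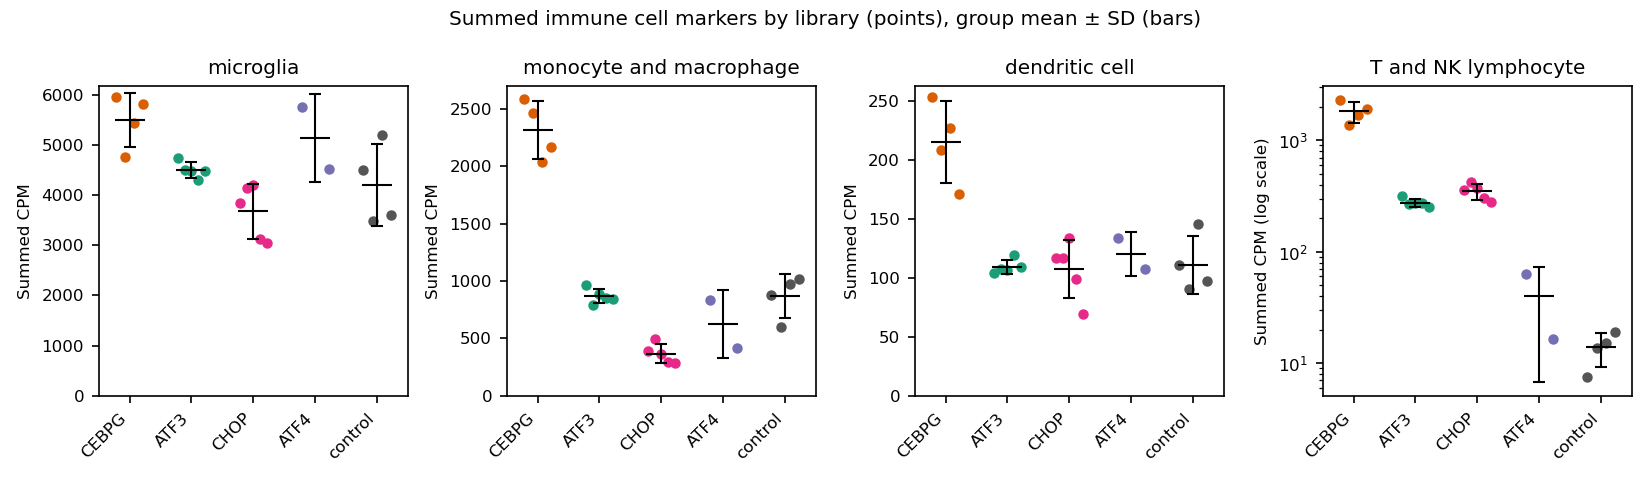
Summed CPM of the marker genes of microglia, monocytes and macrophages, dendritic cells, and T and natural killer lymphocytes (vertical axes, the last on a log scale) in each library (points) with group mean and SD (bars). The CEBPG points lie above all others in every panel but that of microglia, and the ATF3 and CHOP lymphocyte sums lie between those of CEBPG and control.

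In the other 3 knockouts, several class I genes were lower than in the controls. In ATF3, 7 of 28 were lower and 0 higher, beside 14.8% of all genes called lower and 18.6% called higher, and the median log2 fold change was -0.25. In CHOP, 8 of 28 were lower and 0 higher, beside 15.4% and 18.1% of all genes (median -0.32), and in ATF4 7 of 28 were lower and 0 higher, beside 14.6% and 16.6% (median -0.23). These comparisons share the 4 controls. Tap1 was lower in ATF3 (-0.61, SE 0.15, adjusted p = 0.00241), in CHOP (-0.67, SE 0.15, adjusted p = 0.00101) and in ATF4 (-0.71, SE 0.20, adjusted p = 0.00862), and every library of the 3 knockouts lay below every control. Nlrc5 was lower in ATF3 (-0.67, SE 0.18, adjusted p = 0.00467) and ATF4 (-1.33, SE 0.25, adjusted p = 0.000241), again without overlap, and did not pass in CHOP (-0.29, adjusted p = 0.226). Tap2 and H2-T23 were lower in all 3 as well (Tap2 -0.41, -0.53 and -0.62, and H2-T23 -0.50, -0.60 and -0.57 in ATF3, CHOP and ATF4), and so was H2-K2 (-0.998, -0.74 and -0.81). Psmb9 was lower in ATF3 (-0.67) and CHOP (-0.69), Psmb8, Tapbp and H2-M3 in CHOP only by this threshold (-0.47, -0.42 and -0.58), and Erap1 and H2-T10 in ATF4 only by this threshold (-1.02 and -3.81, H2-T10 resting on 6 ATF4 reads), differences between knockouts that were tested only between ATF3 and CHOP.

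Also called lower in ATF3 was H2-M2 (-4.36, SE 1.32, adjusted p = 0.0125), at 10 reads in the 5 ATF3 libraries. Several calls near the threshold rested on single libraries. In ATF3, that of H2-T23 was lost without control replicate 7 (adjusted p = 0.0974) and that of Tap2 was lost when ATF3 replicate 7 (0.0886), ATF3 replicate 8 (0.071), control replicate 4 (0.119) or control replicate 7 (0.13) was left out. In CHOP, H2-M3 was lost without CHOP replicate 2 or 5 or control replicate 4 or 8 (0.0607, 0.0643, 0.0529 and 0.0567), Psmb8 without CHOP replicate 5 or control replicate 7 (0.0552 and 0.0976) and Tapbp without control replicate 4 (0.062). In ATF4, without replicate 3 the count of lower class I genes fell to 2, with H2-K2, H2-T10, H2-T23, Tap1 and Tap2 lost (0.161, 0.163, 0.146, 0.0795 and 0.212), and without replicate 1 Erap1 and H2-T23 were lost (0.381 and 0.166). H2-T23 in ATF4 was also lost without control replicate 4 or 7 (0.0517 and 0.109). With 1 ATF4 library left, that library is assumed to vary like the other groups.

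Between ATF3 and CHOP knockouts, 0 of 28 class I members were called in either direction, beside 1.51% of all genes called higher and 0.756% called lower in ATF3. At an unadjusted p below 0.05, 1 was higher and 3 lower in ATF3 by edgeR, DESeq2 called 1, and without ATF3 replicate 5 edgeR called 1. H2-K1 differed by 0.06 (SE 0.10) and Nlrc5 by -0.39 (SE 0.17) on the log2 scale.

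Class II genes followed another order. They were lower than control in the ATF3 and CHOP knockouts and higher in CEBPG than in ATF3 and CHOP, while CEBPG and control did not differ by the test. In ATF3, 6 of 11 class II genes were lower than in control and 0 higher, with a median log2 fold change of -0.81. In CHOP, 7 of 11 were lower and 0 higher, with a median of -1.41, and in ATF4 3 of 11 were lower and 0 higher, with a median of -0.61. The shares of all genes called in each comparison are those given for class I. CEBPG against control gave 0 of 11 by edgeR, with a median of -0.17. In that comparison 4 genes had an unadjusted p below 0.05, 2 of them higher and 2 lower, DESeq2 called 0, and without control replicate 5 edgeR called H2-DMb1 lower (1 gene, log2 fold change -0.67, adjusted p = 0.0248). Within the batch, 7 of 11 were higher in CEBPG than in ATF3 (median 0.96) and 8 of 11 higher than in CHOP (median 1.47), with 0 lower in either.

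Cd74, the invariant chain, had the most class II reads. Cd74 was at 1072, 1330, 1539 and 1595 CPM in the CEBPG and 433, 589, 565, 649 and 605 CPM in the ATF3 knockouts. It was at 517, 587, 643, 412 and 343 CPM in the CHOP and 1599 and 763 CPM in the ATF4 knockouts, against 2132, 1481, 2399 and 1594 CPM in the controls. Every ATF3 and CHOP library lay below every control (-1.74, SE 0.20, adjusted p = 3.58e-07 for ATF3, -1.93, SE 0.20, adjusted p = 7.65e-08 for CHOP), and every CEBPG library above every ATF3 and CHOP library (1.28, SE 0.20, adjusted p = 5.79e-05 and 1.47, SE 0.20, adjusted p = 8.22e-06). CEBPG and control overlapped (-0.46, SE 0.21, adjusted p = 0.0992). H2-Ab1 and H2-Aa encode the beta and alpha chains of I-A, the class II molecule of C57BL/6 mice. H2-Ab1 was at 553, 576, 571 and 633 CPM in the CEBPG and 195, 316, 291, 325 and 295 CPM in the ATF3 knockouts. It was at 163, 226, 196, 129 and 122 CPM in the CHOP and 635 and 252 CPM in the ATF4 knockouts, against 776, 553, 841 and 671 CPM in the controls. The ATF3 and CHOP values were below all controls (-1.32, SE 0.21, adjusted p = 2.7e-05 and -2.09, SE 0.21, adjusted p = 4.97e-08), and those of CEBPG above both (1.04, SE 0.21, adjusted p = 0.000862 and 1.80, SE 0.21, adjusted p = 1.12e-06). H2-Aa was at 247, 313, 285 and 309.5 CPM in the CEBPG and 93.5, 139, 131, 139 and 131 CPM in the ATF3 knockouts. It was at 88.4, 87.9, 112, 72.3 and 66.0 CPM in the CHOP and 331 and 126 CPM in the ATF4 knockouts, against 359, 286, 430.2 and 319 CPM in the controls. The same separation held for H2-Aa (-1.46, SE 0.20, adjusted p = 4.16e-06 for ATF3, -2.03, SE 0.20, adjusted p = 3.71e-08 for CHOP, and 1.19, SE 0.20, adjusted p = 0.000141 for CEBPG over ATF3).

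H2-Eb1 encodes the beta chain of I-E, which is not displayed in C57BL/6 mice because its alpha chain gene is defective. H2-Eb1 was at 260.2, 276, 249.96 and 314 CPM in the CEBPG and 84.4, 126, 116, 126 and 122 CPM in the ATF3 knockouts. It was at 82.1, 93.5, 98.1, 68.9 and 47.1 CPM in the CHOP and 296 and 129 CPM in the ATF4 knockouts, against 329, 231, 385 and 292 CPM in the controls. It was lower in every ATF3 and CHOP library than in every control (-1.43, SE 0.21, adjusted p = 9.53e-06 and -1.99, SE 0.21, adjusted p = 9.26e-08) and higher in CEBPG than in ATF3 (1.26, SE 0.21, adjusted p = 0.000118). Reads of H2-Eb1 per read of H2-Ab1 were 0.438 to 0.496 in the CEBPG, 0.388 to 0.432 in the ATF3, 0.385 to 0.533 in the CHOP and 0.466 and 0.513 in the ATF4 knockouts, against 0.418 to 0.458 in the controls. Those of H2-Aa per read of H2-Ab1 were 0.446 to 0.543 in the CEBPG and 0.428 to 0.479 in the ATF3 knockouts. They were 0.388 to 0.574 in the CHOP and 0.522 and 0.501 in the ATF4 knockouts, against 0.462 to 0.517 in the controls. Among the 4 genes with the most class II reads, ATF3 replicate 5 was the lowest ATF3 library. The ATF4 pair was split: replicate 1, at 1599, 635, 331 and 296 CPM of Cd74, H2-Ab1, H2-Aa and H2-Eb1, lay within the control range, and replicate 3, at 763, 252, 126 and 129 CPM, lay below every control. None of the 4 passed in ATF4 (adjusted p = 0.0518, 0.066, 0.0852 and 0.142). Replicate 1 also had the higher sum of that pair for most marker lists. Among these were monocytes and macrophages (834 against 414 CPM), microglia (5755 against 4512 CPM) and rods (3739 against 2999 CPM). The amacrine and endothelial sums were lower in replicate 1. The part of these cells in the split was not tested.

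**Figure D4:**
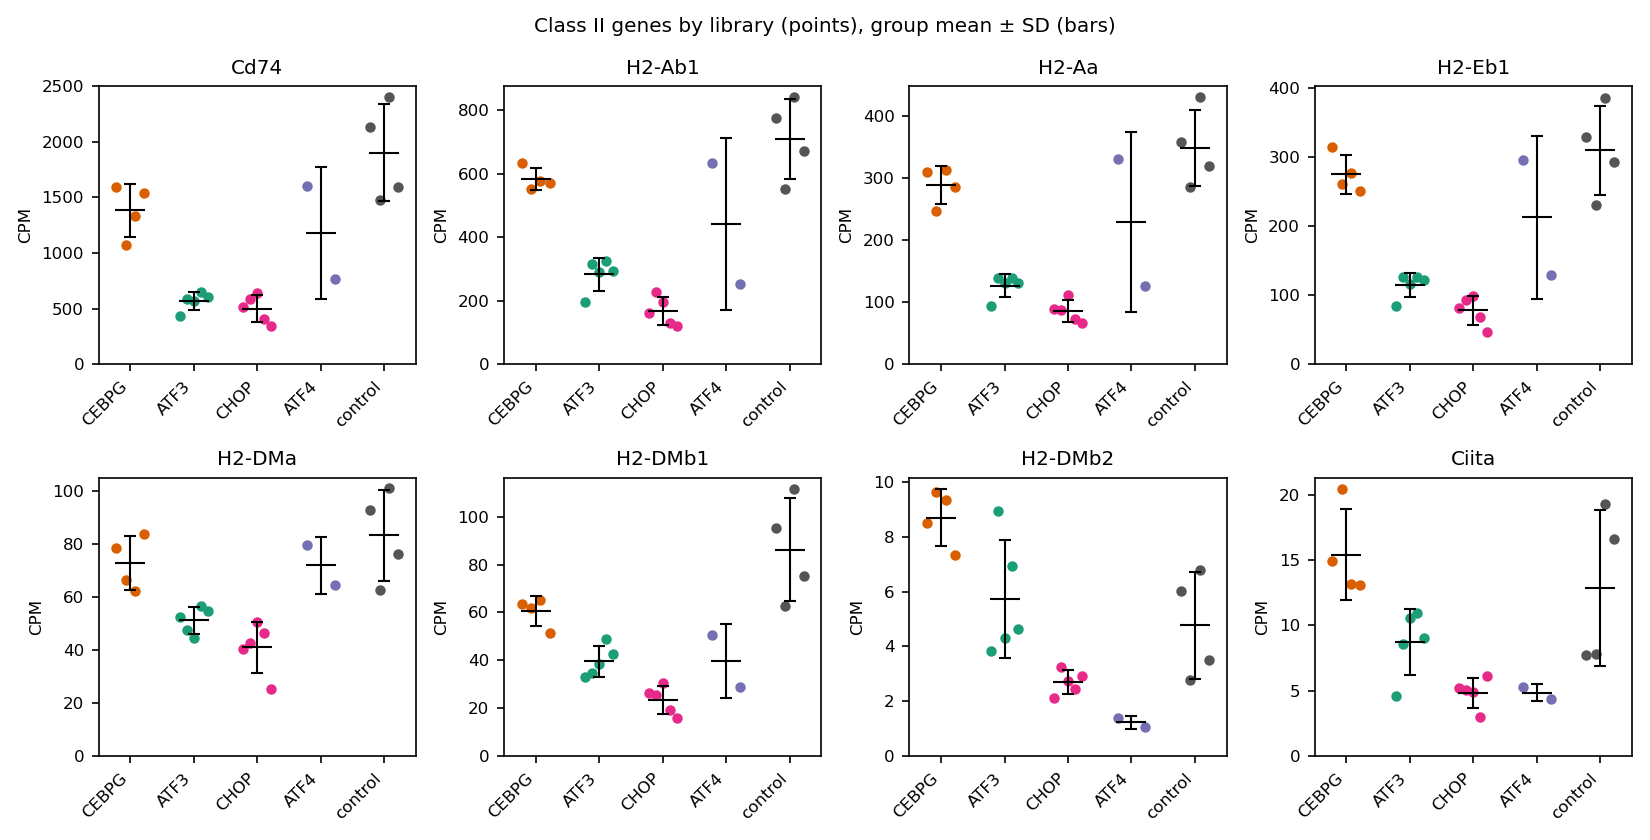
CPM (vertical axes, from 0) of 8 class II genes in each of the 20 libraries (points), with the group mean and SD as bars. For Cd74, H2-Ab1, H2-Aa, H2-Eb1, H2-DMa and H2-DMb1 the ATF3 and CHOP points lie below all control points, and the 2 ATF4 points of Cd74, H2-Ab1, H2-Aa and H2-Eb1 stand far apart.

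The peptide exchange factor H2-DM consists of the chains of H2-DMa with H2-DMb1 or H2-DMb2. H2-DMa was at 66.3, 62.3, 84.0 and 78.3 CPM in the CEBPG and 52.3, 47.5, 44.7, 56.7 and 54.9 CPM in the ATF3 knockouts. It was at 40.3, 42.4, 50.7, 46.4 and 25.4 CPM in the CHOP and 79.5 and 64.4 CPM in the ATF4 knockouts, against 92.9, 62.7, 101 and 76.3 CPM in the controls. The ATF3 and CHOP values were below all controls (-0.70, SE 0.17, adjusted p = 0.00267 and -1.02, SE 0.17, adjusted p = 5.93e-05), and those of CEBPG above ATF3 (0.51, SE 0.17, adjusted p = 0.0389) and above CHOP (0.83, SE 0.17, adjusted p = 0.000964). H2-DMb1 was at 61.9, 65.3, 51.2 and 63.6 CPM in the CEBPG and 32.9, 34.8, 38.2, 48.8 and 42.5 CPM in the ATF3 knockouts. It was at 26.3, 25.3, 30.3, 19.1 and 16.0 CPM in the CHOP and 50.7 and 28.7 CPM in the ATF4 knockouts, against 95.4, 62.5, 112 and 75.4 CPM in the controls. The ATF3, CHOP and ATF4 libraries all lay below the controls (-1.13, SE 0.20, adjusted p = 0.000111 for ATF3, -1.88, SE 0.20, adjusted p = 1.29e-07 for CHOP, -1.12, SE 0.28, adjusted p = 0.00301 for ATF4). CEBPG was higher than ATF3 (0.62, SE 0.20, adjusted p = 0.0311) and also than CHOP (1.37, SE 0.20, adjusted p = 2.29e-05). H2-DMb2 was at 9.62, 9.33, 7.32 and 8.50 CPM in the CEBPG and 3.82, 8.94, 4.30, 6.95 and 4.61 CPM in the ATF3 knockouts. It was at 2.10, 3.23, 2.74, 2.44 and 2.91 CPM in the CHOP and 1.39 and 1.05 CPM in the ATF4 knockouts, against 6.03, 2.75, 6.80 and 3.48 CPM in the controls. H2-DMb2 had other calls: it was lower in ATF4 (-1.97, SE 0.57, adjusted p = 0.0101) and higher in CEBPG than in CHOP (1.69, SE 0.39, adjusted p = 0.00226), and did not pass in ATF3 against control (0.26, adjusted p = 0.662). In the ATF4 comparison H2-DMb1 was lost without ATF4 replicate 3 (adjusted p = 0.102) and H2-DMb2 without either ATF4 library (0.0505 and 0.0909).

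Ciita is the coactivator on which class II transcription depends. Ciita was at 20.5, 13.2, 13.1 and 15.0 CPM in the CEBPG and 4.62, 8.55, 10.6, 10.9 and 9.03 CPM in the ATF3 knockouts. It was at 5.18, 5.02, 4.93, 2.94 and 6.12 CPM in the CHOP and 5.29 and 4.38 CPM in the ATF4 knockouts, against 7.74, 7.77, 19.3 and 16.6 CPM in the controls. It was lower than control in CHOP (-1.41, SE 0.33, adjusted p = 0.00176) and ATF4 (-1.41, SE 0.46, adjusted p = 0.021) without overlap, and its difference did not pass in ATF3 (-0.56, SE 0.33, adjusted p = 0.204). CEBPG was higher than CHOP (1.67, SE 0.33, adjusted p = 0.000578), whereas against ATF3 the CEBPG values were all higher without passing (0.82, SE 0.33, adjusted p = 0.0801). The ATF4 call was lost without either ATF4 library (adjusted p = 0.0863 and 0.14) or control replicate 7 (0.0557). H2-Oa and H2-Ob form H2-DO, the inhibitor of H2-DM. H2-Oa was at 0.608, 8.66, 9.16 and 16.2 CPM in the CEBPG and 3.67, 4.69, 4.38, 5.35 and 4.26 CPM in the ATF3 knockouts. It was at 4.48, 5.43, 4.97, 2.05 and 3.04 CPM in the CHOP and 13.4 and 6.49 CPM in the ATF4 knockouts, against 11.98, 4.86, 7.31 and 7.15 CPM in the controls. The groups overlapped in each of the 7 comparisons. Both ATF4 values lay above every ATF3 and CHOP value, a difference that was not tested. H2-Ob was at 10.2, 3.60, 11.6 and 9.51 CPM in the CEBPG and 5.96, 8.19, 7.18, 4.51 and 9.19 CPM in the ATF3 knockouts. It was at 4.97, 4.74, 4.05, 10.1 and 2.70 CPM in the CHOP and 8.93 and 5.27 CPM in the ATF4 knockouts, against 11.3, 2.75, 7.57 and 1.70 CPM in the controls. These also overlapped, and neither gene had a call in any of the 7 comparisons. H2-Eb2 was close to absent. H2-Eb2 was at 0.507, 0, 0.400 and 0.573 CPM in the CEBPG and 0, 0, 0, 0 and 0 CPM in the ATF3 knockouts. It was at 0, 0, 0, 0.649 and 0.0832 CPM in the CHOP and 0 and 0.0811 CPM in the ATF4 knockouts, against 0, 0, 0 and 0 CPM in the controls. The 4 CEBPG libraries together held 29 reads, and every ATF3 and control library was at 0. With 3 reads over all ATF3 libraries taken as the floor, H2-Eb2 was at least 17.5-fold higher in CEBPG (adjusted p = 0.0475, a call lost without any 1 of 10 libraries, namely each ATF3 library, CEBPG replicates 6, 9 and 10 and CHOP replicates 1 and 5, at adjusted p = 0.0506 to 0.0835). The floor covers counting error only.

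The CEBPG over ATF3 count of class II genes fell to 4 without ATF3 replicate 5, 6 or 7 or CEBPG replicate 10, through H2-DMa, H2-DMb1 and H2-Eb2. H2-DMa was lost without ATF3 replicate 5, 6, 7 or 9, CEBPG replicate 9 or 10 or CHOP replicate 1 (adjusted p = 0.0502 to 0.111), and H2-DMb1 without ATF3 replicate 5, 6 or 7 or CEBPG replicate 6, 8 or 10 (0.0586 to 0.0756). In ATF4 the class II count was 5 without ATF4 replicate 1, CHOP replicate 4 or control replicate 5, and 0 without ATF4 replicate 3. Between ATF3 and CHOP, H2-Ab1 and H2-DMb1 were higher in ATF3 (0.77, SE 0.20, adjusted p = 0.0393 and 0.75, SE 0.19, adjusted p = 0.0357), 2 of 11, and 0 were lower. All ATF3 values of H2-DMb1 lay above all CHOP values, while those of H2-Ab1 overlapped at ATF3 replicate 5. Without ATF3 replicate 6 or CHOP replicate 1 that count was 1, and without ATF3 replicate 7, 8 or 9 or CHOP replicate 4 or 5 it was 0 (adjusted p = 0.0732 to 0.121 for H2-Ab1 and 0.0599 to 0.107 for H2-DMb1).

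Among the markers, those of monocytes and macrophages were lower in CHOP than in control in 4 of 9 and higher in 3, and their sum in CHOP, 286 to 494 CPM, lay below every control. In ATF3 that sum overlapped the controls, and of the 9 markers 3 were called higher and 0 lower. Of 12 microglia markers, 2 were called higher and 0 lower in ATF3, and 0 higher and 2 lower in CHOP. Of 10 dendritic cell markers, 2 were called higher and 0 lower in ATF3, and 0 higher and 1 lower in CHOP. Of all genes, 18.6% were called higher and 14.8% lower in ATF3, and 18.1% and 15.4% in CHOP. The counts of microglia and dendritic cell markers called are near or below these shares. The part of these cells in the class II differences was not tested. Rod markers, by contrast, summed to 2459 to 4279 CPM in the CEBPG, 3275 to 3478 CPM in the ATF3, 4331 to 7316 CPM in the CHOP and 2999 to 3739 CPM in the ATF4 knockouts, against 30817 to 48998 CPM in the controls, and all 8 were called lower in each knockout. The part of that difference in the comparisons with control was not tested either.

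Class II reads summed over the 11 genes, divided by class I reads summed over the 29 genes, gave 0.421 to 0.444 in the CEBPG, 0.302 to 0.512 in the ATF3, 0.287 to 0.399 in the CHOP and 0.856 and 0.456 in the ATF4 knockouts (replicates 1 and 3), against 1.02 to 1.15 in the controls. The ratio describes the sums and was given no test. It was below the controls in every knockout library. In CEBPG the class I sum was 5325 to 7230 CPM, against 2651 to 3982 CPM in the controls, and the class II sum overlapped the controls (2302 to 3043 CPM, against 2695 to 4309 CPM). In ATF3 and CHOP the class I sums, 2679 to 3010 CPM and 2213 to 2877 CPM, overlapped those of the controls, and the class II sums were 910 to 1372 CPM and 635 to 1147 CPM, below every control.

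**Figure D5:**
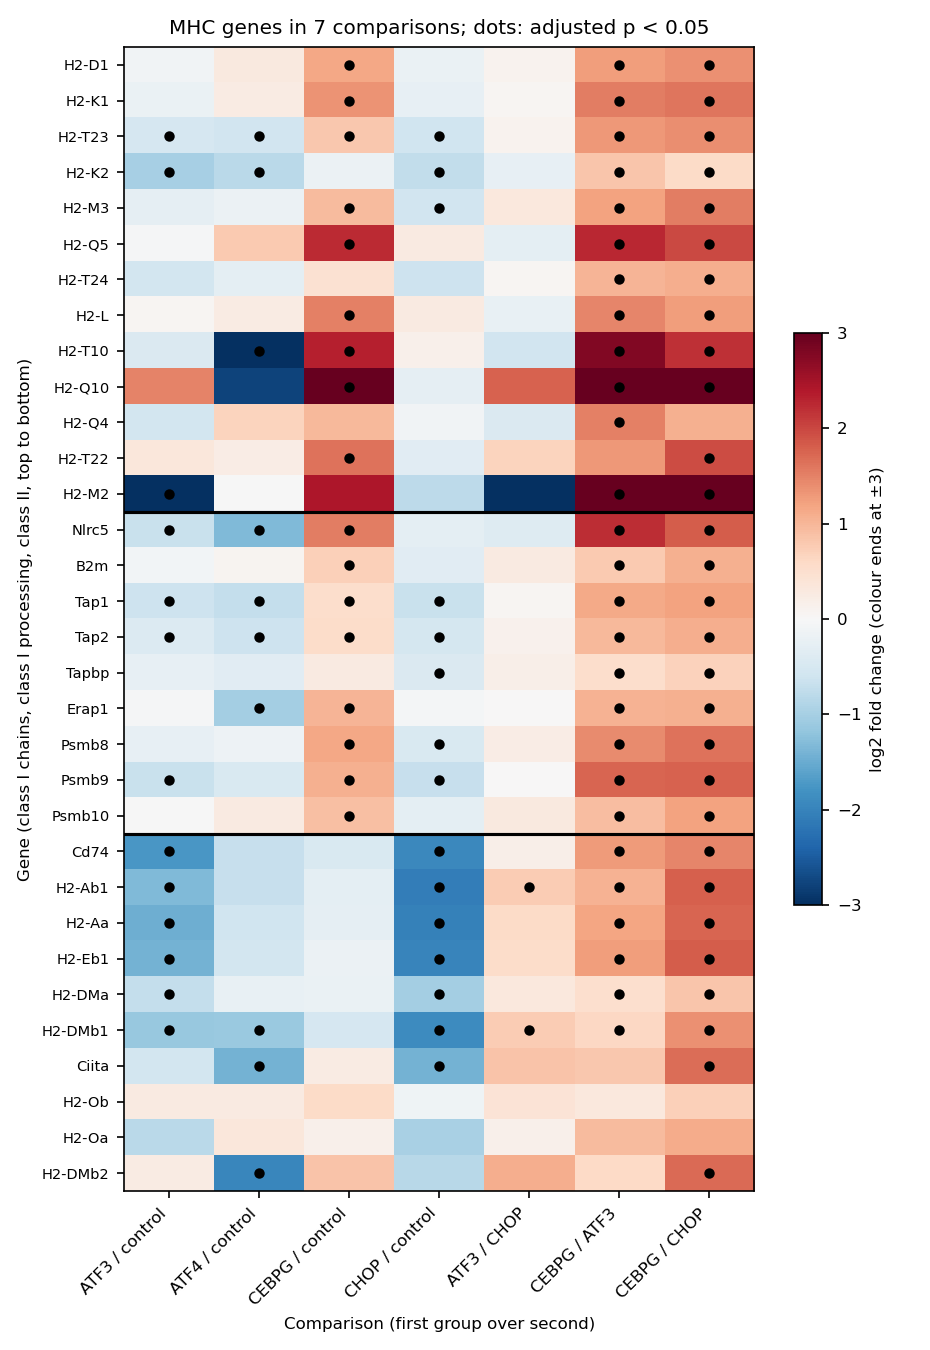
Log2 fold change (colour, red for higher in the group named first, ends at ±3) of the MHC genes that averaged 2 CPM or more in 7 comparisons (columns), with class I chains, class I processing genes and class II genes from top to bottom and dots where the adjusted p was below 0.05. The 2 right-hand columns, CEBPG over ATF3 and over CHOP, are red in nearly every row, while against control most class I rows are red in CEBPG and most class II rows are blue in ATF3 and CHOP.

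Other genes of the pathway were read from lists. The shares of all genes called higher and lower, against which each list's counts are to be read, were 10.2% and 10.1% in CEBPG against ATF3, 13.5% and 13.2% in CEBPG against CHOP and 18.3% and 15.0% in CEBPG against control. Against control they were 18.6% and 14.8% in ATF3, 18.1% and 15.4% in CHOP and 16.6% and 14.6% in ATF4. Of 16 regulators and interferon inputs of class I that were tested, 11 were higher and 0 lower in CEBPG than in ATF3 knockouts, 14 higher and 0 lower than in CHOP, and 11 higher and 0 lower than in control. Against control, 6 were higher and 3 lower in ATF3, 4 and 4 in CHOP, and 2 and 5 in ATF4. Irf1, an interferon-induced activator of class I promoters, was higher in CEBPG than in ATF3 (1.41, SE 0.13, adjusted p = 6.9e-08) and CHOP (1.39), and lower than control in ATF3 (-1.10), CHOP (-1.07) and ATF4 (-1.83, SE 0.18, adjusted p = 1.34e-07). Ifng, which encodes interferon gamma, was at 34.9, 46.6, 33.6 and 56.6 CPM in the CEBPG and 2.29, 0.0324, 2.48, 3.02 and 0.977 CPM in the ATF3 knockouts. It was at 5.74, 8.03, 12.5, 3.49 and 2.87 CPM in the CHOP and 0.260 and 0 CPM in the ATF4 knockouts, against 0, 0, 0 and 1.88 CPM in the controls. The CEBPG values lay above all others (4.60, SE 0.79, adjusted p = 0.000189 against ATF3 and 2.71, SE 0.73, adjusted p = 0.00769 against CHOP). Socs1, an interferon-induced brake on the pathway, was also higher in CEBPG than in ATF3 (1.69, SE 0.26, adjusted p = 4.17e-05).

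Of 16 further class I loading and peptide supply genes, 5 were higher and 2 lower in CEBPG than in ATF3, 6 and 1 than in CHOP, and 9 and 1 than in control. Psme2, a subunit of the interferon-induced proteasome activator, was higher in CEBPG than in ATF3 (1.02, SE 0.13, adjusted p = 3.82e-06), CHOP (1.26) and control (0.94). Npepps, an aminopeptidase of the cytosol, was lower in all 3 comparisons (-0.38, -0.35 and -0.49). In ATF3 5 of the 16 were higher and 1 lower than in control, in CHOP 2 and 2 and in ATF4 5 and 3. The CHOP counts of that list are no larger than the shares of all genes, 18.1% and 15.4%. The chaperone genes Canx and Calr were higher in ATF3 (1.06 and 0.78) and CHOP (1.12 and 0.56).

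Of 11 regulators of class II, 3 were higher in CEBPG than in ATF3, 4 higher than in CHOP and 4 higher and 1 lower than in control, beside 10.2%, 13.5%, 18.3% and 15.0% of all genes. Rfxap, a subunit of the RFX factor of the SXY module, was higher than control in ATF3 (0.53, SE 0.12, adjusted p = 0.00165), CHOP (0.58) and ATF4 (0.87). In ATF3 2 of the 11 were higher and 0 lower, and in CHOP and in ATF4 2 were higher and 2 lower, shares close to or below those of all genes. Spi1 (PU.1), a regulator of myeloid cells, and Irf8 were lower than control in CHOP (-0.69, SE 0.18, adjusted p = 0.00537 and -0.47, SE 0.13, adjusted p = 0.00819), and Spi1 was higher in ATF3 than in CHOP (0.67, SE 0.17, adjusted p = 0.0372). Of 14 class II processing and display genes in the table, 7 were higher in CEBPG than in ATF3, 11 higher than in CHOP, and 7 higher and 1 lower than in control. March1, a ubiquitin ligase that removes class II from the cell surface, was lower than control in all 4 knockouts (CEBPG -1.64, SE 0.26, adjusted p = 2.88e-05, ATF3 -1.92, CHOP -2.10 and ATF4 -2.77). Ctss, the protease that cuts the invariant chain, was lower in CHOP (-0.47, SE 0.14, adjusted p = 0.0108). In that list 4 were higher and 2 lower in ATF3 than in control, 1 and 6 in CHOP, and 4 and 2 in ATF4, where the 2 lower in ATF3 and in ATF4 are near the 14.8% and 14.6% of all genes.

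Receptors that read MHC molecules were measured too. Of 11 tested, all 11 were higher in CEBPG than in ATF3 and 9 higher than in CHOP and control. Cd8a, of the coreceptor that binds class I, was at 60.4 to 106 CPM in the CEBPG, 4.61 to 10.2 CPM in the ATF3, 4.70 to 7.59 CPM in the CHOP and 0.520 to 1.46 CPM in the ATF4 knockouts, against 0 to 2.11 CPM in the controls (3.39, SE 0.39, adjusted p = 1.57e-06 for CEBPG over ATF3). Against control 7 of the 11 were higher and 1 lower in ATF3 and in CHOP, and 4 and 1 in ATF4. Of 8 class I-like genes outside the MHC, 1 was higher in CEBPG than in ATF3, 5 higher than in CHOP and 1 higher than in control. Cd1d1, which presents lipids, was lower than control in ATF3 (-1.46, SE 0.32, adjusted p = 0.00107) and CHOP (-1.57), and 1 and 4 of the 8 were lower in these knockouts, with 0 called in ATF4.

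The authors' deposited table of knockout against control was set beside these values. Its model and covariates are not given in the sources used, and its fold changes are taken as log2. Whether it rests on the same libraries as the fit here, or includes the library left out for contradictory labels, was not established. The part of the choice of libraries in the differences below was not tested. For CEBPG the authors' deposited table called 15 class I genes higher and 0 lower at an FDR below 0.05, and all 15 were called higher here. Its H2-K1 value was 1.68 (FDR 2.3e-08) and its Nlrc5 value 2.01. In class II the authors' deposited table called 2 genes higher in CEBPG, H2-Eb1 (1.15, FDR 0.018) and H2-DMb2 (2.17, FDR 0.0174), where the counts gave 0 calls. For ATF3 and CHOP the authors' deposited table called 0 of 29 class I and 0 of 11 class II genes, with class II medians of 0.28 and -0.07, while edgeR on the counts called 6 and 7 class II genes lower. Cd74, for example, had a log2 fold change of 0.19 in ATF3 and -0.07 in CHOP in the authors' deposited table, against -1.74 and -1.93 here. For ATF4 the authors' deposited table gave Nlrc5 as higher (1.38, FDR 0.0371), while every ATF4 library lay below every control in the counts (-1.33 here). It also listed Psmb8 (-0.95), Tap1 (-1.45) and Tap2 (-1.15) as lower in ATF4, of which Tap1 and Tap2 were called lower here too, and H2-DMb1 (-2.01), which was called lower here as well.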

How the data were processed

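RNA of sorted retinal cells was sequenced after SMART-Seq amplification, per the labels. The deposited counts are the authors' reads per gene; the submitters' processing notes name STAR, Picard, HTSeq, edgeR and mm10, while no source used here gives versions, annotation or strand setting. The authors' deposited table holds log fold changes, taken as log2, with p-values and FDRs. The sample sheet gave sex, batch and age, and 42 other per-library columns of it were not used.

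The 20 libraries of 5 groups were fitted together, as counts, with edgeR 4.0.16 (limma 3.58.1, R 4.3.3): filterByExpr with a minimum count of 10 kept 16797 genes and removed 367, TMM scaling, quasi-likelihood test, 15 residual degrees of freedom, common biological coefficient of variation 0.407, Benjamini-Hochberg adjustment over all genes and a threshold of 0.05. DESeq2 1.42.0, RLE or no scaling, no filter, the 2 groups alone, a replicate block and leaving out each library were alternatives. Ratios were compared by exact permutation tests (scipy 1.17.1, Python 3.11.15). The scripts were tested on simulated data. Nothing in the labels ties libraries to separate animals, and p-values therefore reflect only variation among libraries, which may be technical. Members and lists were chosen with earlier results of these data known. Values in every library are given for members averaging 5 CPM or more and for others called within the batch; of the lists, at most 2 genes per direction and comparison were named, by adjusted p, with their values elsewhere. Places were taken from GENCODE, promoters from RefSeq. Replicate numbers did not pair libraries (correlations of deviations -0.0476 to 0.0264).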

Additional observations from a re-analysis of the deposited data

Results flagged for a closer look

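In 18 of 218 sets of 4 or 5 libraries of one group, 1 library lay far from the others by Dixon's test, which chance flags in about 1 of 20 sets.

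Of these, 6 were in ATF3 replicate 5. It was the highest ATF3 library for B2m (970.501 CPM), H2-D1 (774.474 CPM) and H2-M2 (0.305862 CPM, where the others were at 0), and the lowest for H2-Ab1 (195.262 CPM), H2-Aa (93.4715 CPM) and H2-Eb1 (84.418 CPM). H2-L was highest in ATF3 replicate 6 (11.1041 CPM), H2-Q4 lowest in ATF3 replicate 7 (1.10436 CPM), and the ganglion cell marker sum highest in ATF3 replicate 8 (689.024 CPM).

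Among CEBPG libraries, H2-M3 was highest in replicate 10 (81.5405 CPM) and H2-Q10 in replicate 8 (28.5533 CPM). Among CHOP libraries, H2-K2 was highest in replicate 2 (66.6669 CPM), where H2-Aa per H2-Ab1 was lowest (0.388358). Nlrc5 and Tap1 were highest in CHOP replicate 3 (26.5113 and 70.5564 CPM), H2-Eb2 highest in CHOP replicate 4 (0.648572 CPM) and H2-Q5 lowest there (6.33605 CPM). H2-Q8 was lowest in control replicate 8 (0.267942 CPM).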

How the results depend on the processing

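No result reversed. Fitting only the 2 groups compared gave 1 class I call between ATF3 and CHOP, as did DESeq2, and DESeq2 gave 6 class II calls in ATF4 against control. Replicate numbers did not pair the libraries. With the replicate block, the class I counts were 4 in ATF3, 3 in ATF4 and 5 in CHOP against control and 11 in CEBPG against CHOP. The class II counts with the block were 1 in ATF4 against control, 0 in ATF3 against CHOP, 4 in CEBPG against ATF3 and 5 in CEBPG against CHOP. Leaving out 1 library at a time gave 0 to 1 class I calls between ATF3 and CHOP and 2 to 9 in ATF4 against control. Class II calls ran from 0 to 3 between ATF3 and CHOP, 0 to 5 in ATF4 against control, 4 to 7 in CEBPG against ATF3 and 0 to 1 in CEBPG against control. The cause of these changes was not tested. Leaving out a library makes the samples smaller, and the replicate block leaves fewer residual degrees of freedom. The other counts stayed within 1.5 times. Without CEBPG replicates 6 and 8, an alternative chosen after seeing the data, every count of calls did so too. Over all alternatives, values of single genes lost their call in 182 cases, gained one in 65 and were the same in 6153. In 16 further cases a value without a call changed sign, by more than its SE in the main fit. Another scaling moved the median of all genes by at most 0.0925 (log2). Depth limits members with few reads, such as H2-Eb2, H2-M2 and H2-T10.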
